A study of Mus musculus with 8 samples.

Results

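The genes described here encode the scaffold and signalling proteins of the postsynaptic density, the protein mesh beneath the receptors of an excitatory synapse. They are a list of 31 genes chosen by name, with no threshold on measured values, from a table of 31417. RNA was sequenced from the striatum, the gate through which cortical input enters the basal ganglia, of mice aged 12 months. There were 4 wild-type controls and 4 Dclk3 knockouts, each library made from the striatum of 1 mouse, so the replicates are animals. Dclk3 is a doublecortin-like kinase gene, and the labels give neither the deleted exons, nor the strain or sex of the mice, nor whether the loss is confined to a cell type. All 31 genes were found in the table and all passed the filter on low counts, with between 201 (Homer3) and 52747 (Cyfip2) counts in a library.

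In a spiny projection neuron, the main neuron of the striatum, excitatory axons from the cortex and thalamus end on dendritic spines. Membrane-associated guanylate kinases (the Dlg proteins) hold glutamate receptors through PDZ domains, SAPAP proteins (Dlgap) bind the guanylate kinase domain of the Dlg proteins, SHANK proteins bind SAPAP, and HOMER proteins tie SHANK to metabotropic receptors and to calcium stores. Around this core sit exchange factors for small GTPases, actin regulators that shape the spine, and proteins that move AMPA receptors in and out of the membrane. Losses of Dlgap3 or Shank3 in mice are known for repetitive grooming and altered corticostriatal synapses. The list also holds Gphn, which encodes the scaffold of inhibitory synapses and not of the excitatory density.

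Between the genotypes 0 of the 31 genes differed with an adjusted p under 0.05 in the quasi-likelihood test of edgeR, adjusted by Benjamini-Hochberg over 16511 genes, where 0.00606% of all genes tested passed, a single gene, Dclk3. At an unadjusted p under 0.05 the count was again 0 of 31, beside 3.76% of all genes, and DESeq2 and limma-voom also gave 0 of 31 at both thresholds. The knockout libraries lay wholly above the wild-type libraries for 0 of 31 genes and wholly below for 0 of 31, beside 1.07% and 0.86% of all genes tested (1.93% in either direction). The smallest unadjusted p was 0.138 (Dlgap2, adjusted p 0.999, edgeR). Log2 fold changes, knockout over wild type, ran from -0.15 (Dlgap2) to 0.062 (Dlg2). Taken gene by gene, the 95% interval of each of the 31 genes lay within 1.5-fold in either direction. The same held for 77.8% of all genes tested. The interval farthest from 0 reached 1.34-fold (Homer1). The median of the farther limits was 1.15-fold for the list, beside 1.22-fold over all genes tested. By level per length the list had a median percentile of 86.6 among all genes tested. The part of level in the width of the intervals was not tested. These p-values and intervals rest on bulk tissue, in which fewer cells of a type and less RNA per cell cannot be told apart. They bear on gene sums over the whole tissue and do not bound a change within a single cell type or transcript form.

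**Figure D1:**
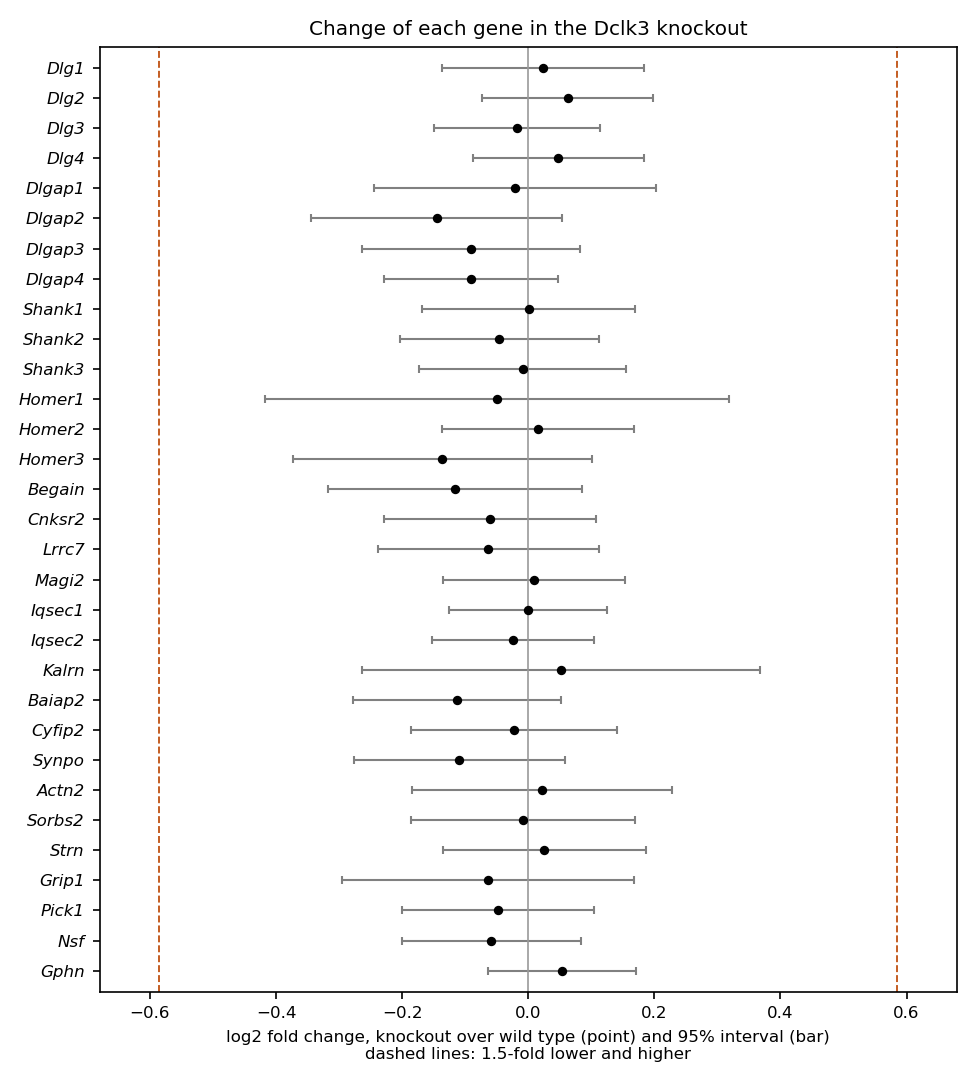
Log2 fold change, knockout over wild type (x axis), of each of the 31 genes (y axis, grouped by role). Points are edgeR estimates, bars are 95% intervals and dashed lines mark 1.5-fold; every bar crosses 0 and none reaches a dashed line, with the widest at Homer1 (-0.42 to 0.32).

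The knockout itself was plain in the libraries. Dclk3 measured 95.2, 117, 80.9 and 86.1 CPM (counts scaled to library size with TMM factors) across wild-type replicates 1 to 4. Knockout replicates 1 to 4 had 27.7, 19.6, 20.9 and 22.7 CPM, a log2 fold change of -2.06 (SE 0.14, adjusted p 0.000773, edgeR). Library totals ran from 24441242 to 37145559 counts. Summed markers of spiny neurons (10 genes, among them Ppp1r1b and Drd1) were at 4412 to 5244 CPM in wild-type striatum and 4377 to 5005 CPM in knockout striatum, with all 10 counted in every library. Some libraries stood apart in neighbouring tissue: choroid plexus markers summed to 2882 CPM in wild-type replicate 4 against 37.9 to 237 CPM in the other 7, and markers of thalamic neurons to 465 CPM in knockout replicate 4 and 300.1 CPM in knockout replicate 1 against 165 to 274 CPM elsewhere. No marker of any of these lists was at 0 in any library. For some of the 31 genes the log2 fold change without these or other libraries is also given; 18 of the 31 values changed sign in at least 1 of 17 alternative analyses.

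The Dlg genes encode the scaffolds that sit closest to the receptors. Dlg4, which encodes PSD-95 (GRCm38 chromosome 11, plus strand, 70016942 to 70047522), was the highest of them. It measured 954, 828, 893 and 878 CPM across the 4 wild-type libraries and 913, 889.8, 977 and 893 CPM across the 4 knockout libraries, given here and below in the order of replicates 1 to 4, and the ranges overlapped. Its log2 fold change was 0.048 (SE 0.063, 95% interval -0.088 to 0.18). Dlg2, a close relative that also anchors NMDA receptors, had the largest positive log2 fold change of the list, 0.062 (95% interval -0.074 to 0.20). Its wild-type values were 606, 551, 528 and 602 CPM and its knockout values 592, 612, 611 and 573 CPM; wild-type replicates 1 and 4 sat among the knockout libraries. Dlg1, a trafficking scaffold of AMPA and NMDA receptors, had 213 CPM ± 13.3 in wild-type striatum and 216 CPM ± 19.1 in knockout striatum (SD, n = 4 each), and Dlg3, a scaffold of NMDA receptors, had 182 CPM ± 10.9 and 179.9 CPM ± 7.19.

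Levels of different genes can be set beside each other only per length, here as CPM per kilobase of merged annotated exon. On that scale Dlg4 made up 43.8% ± 1.75 of the summed Dlg level in wild type and 44.2% ± 1.0 in the knockout (SD, n = 4 each). Dlg2 followed with 22.9% ± 0.700 and 23.4% ± 0.423, Dlg3 with 20.4% ± 1.25 and 19.6% ± 0.982, and Dlg1 with 13.0% ± 0.670 and 12.8% ± 0.881. The makeup of the family thus moved by less than 1 SD of the wild-type libraries for each of the 4 genes. With the longest coding transcript as the length, Dlg4 held 49.3% and 49.5%, and Dlg3 and Dlg1 came close to each other at 12.9% and 12.2% in wild type.

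The SAPAP linkers were dominated by Dlgap3, the form known for its striatal expression (chromosome 4, plus strand, 127169204 to 127237022). Wild-type libraries had 429.7, 433, 367 and 336 CPM of Dlgap3, and knockout libraries 368, 370.0, 367 and 364 CPM. The coefficient of variation of its CPM was 12.2% among wild-type libraries and 0.734% among knockout libraries; wild-type replicates 1 and 2 lay above the knockout values and wild-type replicate 4 below them. The log2 fold change was -0.091 (95% interval -0.26 to 0.081), with values from -0.040 without wild-type replicate 2 to -0.16 without wild-type replicate 4 (unadjusted p 0.0387, adjusted p 0.712, edgeR). Those omissions take away the highest and the lowest wild-type library, so the direction of both shifts was set in advance. Per length Dlgap3 held 59.0% ± 3.53 of the SAPAP level in wild type and 59.0% ± 1.78 in the knockout, or 44.5% and 44.2% with the longest coding transcript as the length. It was 7.50 ± 1.23 times Dlgap2 in wild type and 7.83 ± 1.02 times in the knockout. Dlgap4 and Dlgap1 changed places with the choice of length, so their order is not settled: 18.4% and 14.6% of the wild-type family level by merged exons, 22.4% and 25.5% by the longest coding transcript.

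All 4 SAPAP genes had log2 fold changes below 0, with a median of -0.091, beside 50.5% of all genes tested below 0, and 0 of 4 had an unadjusted p under 0.05. Dlgap2 had the lowest value of the list, -0.15 (SE 0.091, 95% interval -0.34 to 0.054). It was at 70.3, 70.3, 66.0 and 79.6 CPM in wild-type striatum and at 61.9, 70.1, 72.6 and 54.1 CPM in knockout striatum. Knockout replicates 1 and 4 were the lowest 2 of all 8 libraries, so leaving them out had to raise the estimate. Without them the log2 fold change of Dlgap2 was -0.0049. Thalamic markers were highest in the same 2 libraries, and their part in the Dlgap2 values was not tested. Knockout replicate 3 was the highest knockout library of Dlgap2, so leaving it out had to lower the estimate. Without knockout replicate 3 the log2 fold change of Dlgap2 was -0.21 (unadjusted p 0.0492, adjusted p 0.999, edgeR). Dlgap4 (log2 fold change -0.091) measured 238, 237, 222 and 211 CPM in wild-type striatum and 195, 219.8, 219 and 218 CPM in knockout striatum, with knockout replicate 1 apart from the other 3. Without knockout replicates 1 and 4 its value was -0.048. Dlgap1, the linker first found through the guanylate kinase domain of PSD-95, had 380.4 CPM ± 43.2 and 375 CPM ± 50.1. Its highest libraries were wild-type replicate 4 (442 CPM) and knockout replicate 2 (441 CPM) and its lowest knockout replicate 4 (319 CPM). Without knockout replicates 1 and 4 the log2 fold change of Dlgap1 was 0.097 in place of -0.021, so that 3 of the 4 SAPAP genes lay below 0.

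SHANK proteins are the platform beneath the SAPAP layer. Shank3 (chromosome 15, plus strand, 89499623 to 89560261) measured 346, 344, 290.2 and 283 CPM in wild-type striatum and 324, 299.8, 309 and 322 CPM in knockout striatum, so that all knockout libraries lay inside the wild-type range. Its log2 fold change of -0.0087 had an SE of 0.075 (95% interval -0.17 to 0.16). Shank1, the form of the mature spine, had 355 CPM ± 25.6 and 355 CPM ± 34.0 (SD, n = 4 each), and its 95% interval ran from -0.17 to 0.17. Shank2 had 172 CPM ± 16.2 and 167 CPM ± 8.97. By merged exons the ratio of Shank3 to Shank1 was 1.01 ± 0.0432 in wild type and 1.02 ± 0.134 in the knockout, with single libraries from 0.873 to 1.17. By the longest coding transcript it was 1.18 and 1.19, with single libraries from 1.02 to 1.36, so that Shank3 was the higher of the pair in every library by this length and in only some libraries by merged exons. Shank2 held 19.0% ± 0.431 of the family level in wild type and 18.6% ± 0.542 in the knockout. Exons of Shank1 and Shank3 overlap an annotated gene on the opposite strand, and whether reads were counted by strand was not given in the sources used here.

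**Figure D2:**
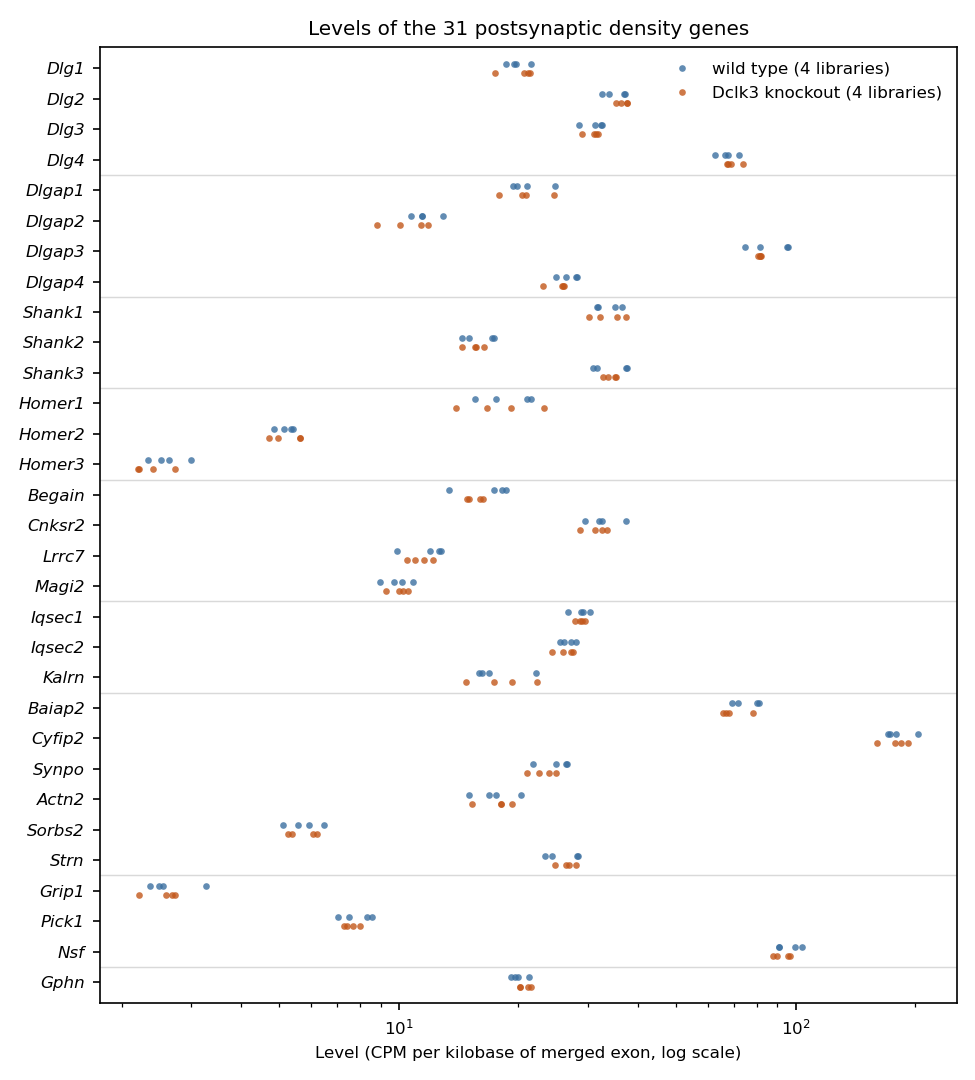
Level of each of the 31 genes in CPM per kilobase of merged exon (log axis), 1 point per library, wild type above and knockout below in each row, with lines between the role groups. Cyfip2, Nsf, Dlgap3, Baiap2 and Dlg4 lie at the high end and Homer3 and Grip1 at the low end, and the points of the genotypes overlap in every row.

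HOMER proteins cross-link SHANK with group I metabotropic glutamate receptors and the IP3 receptor, and a short Homer1 form induced by activity acts against this link. Homer1 (chromosome 13, plus strand, 93299635 to 93405129) was the most variable gene of the list. Its values were 252, 210.1, 186 and 258 CPM in wild-type striatum and 230.1, 200.1, 278 and 167 CPM in knockout striatum. Both the highest library (replicate 3) and the lowest (replicate 4) were knockouts, 1.67-fold apart, and they enclosed all wild-type values. For Homer1 the estimate was a log2 fold change of -0.049 (SE 0.16, 95% interval -0.42 to 0.32), with values from -0.19 without knockout replicate 3 to 0.13 without replicate 4 of both genotypes. Its biological coefficient of variation, the spread between animals beyond counting error, was 16.2%, against a median of 8.57% over the 31 genes and 10.0% over all genes tested. The deposited values are sums over the gene, so the long and the short Homer1 forms are not separated.

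Homer1 varied most between animals and is known as an activity-regulated gene. A promoter window of Homer1 is therefore shown beside a window of Kalrn, the gene with the next largest spread. This choice was made after the values were seen. The windows are the 250 bases before a RefSeq start on GRCm38.p6. Both lie inside the annotated genes, which begin at 93299635 for Homer1 (plus strand) and 34573532 for Kalrn (minus strand). The sequence before those outermost starts is not shown. TGACGT, the core of the cAMP response element, was searched on both strands (ACGTCA on the other), and matches are in capitals.
Homer1, chr13:93303507-93303756, plus strand: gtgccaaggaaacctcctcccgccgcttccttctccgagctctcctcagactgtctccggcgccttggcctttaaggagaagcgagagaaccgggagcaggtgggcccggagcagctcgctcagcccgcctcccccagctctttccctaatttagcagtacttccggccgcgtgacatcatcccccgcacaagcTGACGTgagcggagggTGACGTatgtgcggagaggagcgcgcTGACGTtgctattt
Kalrn, chr16:34514028-34514277, minus strand: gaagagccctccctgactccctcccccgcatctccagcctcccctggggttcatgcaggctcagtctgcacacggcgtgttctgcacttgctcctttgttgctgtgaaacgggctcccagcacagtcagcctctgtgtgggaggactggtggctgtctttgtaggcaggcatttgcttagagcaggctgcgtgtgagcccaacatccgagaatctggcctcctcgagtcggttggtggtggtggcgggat
The Homer1 window held 3 matches, beginning 56, 40 and 14 bases before the start, while the second Homer1 start in the table and the Kalrn window held 0. Of 51 windows of 27 genes of the list, this was the 1 window with a match, and 6.47% of all 32851 windows hold at least 1. Windows for Synpo, Shank1, Shank2 and Dlgap2 were not found in the table. A match is a description of the letters and not evidence of binding.

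The other HOMER genes were lower and steadier. Homer2 had 65.4 CPM ± 3.21 in wild-type striatum and 66.1 CPM ± 5.93 in knockout striatum. Homer3, best known from cerebellum, measured 9.04, 10.3, 8.66 and 8.03 CPM in wild-type striatum and 8.24, 7.61, 7.59 and 9.38 CPM in knockout striatum. With 201 to 367 counts per library Homer3 was the least counted gene of the list, and knockout replicate 4 exceeded 3 of the 4 wild-type libraries. Its log2 fold change was -0.14 (95% interval -0.37 to 0.10), with values from -0.064 without wild-type replicate 2 to -0.26 without replicate 4 of both genotypes (adjusted p 0.579, edgeR). Exons of Homer2 and Homer3 overlap a gene on the opposite strand. By merged exons Homer1 was 3.65 ± 0.544 times Homer2 in wild type and 3.55 ± 1.01 times in the knockout. It held 70.5% ± 3.44 and 70.0% ± 6.08 of the family level. With the longest coding transcript as the length, the ratio was 6.66 in wild type and 6.48 in the knockout. The Homer1 share was then 80.6% and 80.2%.

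Among the other scaffolds, Begain, which binds the guanylate kinase domain of PSD-95, had a log2 fold change of -0.12 (SE 0.092, 95% interval -0.32 to 0.085). It was at 80.0, 76.5, 82.2 and 59.1 CPM in wild-type striatum and 65.5, 70.6, 72.0 and 66.4 CPM in knockout striatum. Wild-type replicate 4, where choroid plexus markers were highest, was the lowest of all 8, and the other 3 wild-type libraries were above every knockout library. The part of choroid plexus tissue in the Begain values was not tested. Leaving out the lowest wild-type library had to lower the estimate. Without wild-type replicate 4 the log2 fold change of Begain was -0.21, with an unadjusted p of 0.00406 and an adjusted p of 0.488 (edgeR), in a comparison where 6.67% of all genes had an unadjusted p under 0.05. It was -0.066 without wild-type replicate 3 and -0.062 without knockout replicates 1 and 4. Cnksr2, a scaffold of Ras signalling, had 304 CPM ± 30.1 and 292 CPM ± 19.5, a log2 fold change of -0.060 that was 0.0078 without knockout replicates 1 and 4. Lrrc7, which encodes densin and binds CaMKII, had 116 CPM ± 13.0 and 111 CPM ± 7.19. Magi2, a PDZ scaffold of receptors and neuroligins, had 113 CPM ± 9.02 and 114 CPM ± 5.95. Per length it was 1.19 ± 0.0390 times its relative Magi1 in wild type and 1.17 ± 0.0704 times in the knockout.

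The exchange factors act on small GTPases. Iqsec1, which activates ARF6, measured 338, 333, 309 and 352 CPM in wild-type striatum and 335, 342, 333 and 322 CPM in knockout striatum. Its 95% interval, -0.13 to 0.12, reached at most 1.09-fold, the smallest such bound of the list. Iqsec2 had 186 CPM ± 7.86 and 183 CPM ± 9.96. By merged exons the pair divided the summed level almost evenly, with Iqsec1 at 51.8% ± 0.865 in wild type and 52.3% ± 0.888 in the knockout. By the longest coding transcript Iqsec1 held 57.3% in wild type and 57.7% in the knockout. Per length Iqsec1 was 1.80 ± 0.180 times Iqsec3, the relative found at inhibitory synapses, in wild type and 1.78 ± 0.0774 times in the knockout. Kalrn, a Rac exchange factor of spines (chromosome 16, minus strand, 33969073 to 34573532), varied more between animals. It was at 406, 382, 391 and 532 CPM in wild-type striatum and 417, 464, 538 and 355 CPM in knockout striatum. Wild-type replicate 4 and knockout replicate 3 were high, knockout replicate 4 was the lowest, and the genotypes overlapped. Its log2 fold change of 0.052 had an SE of 0.14 (95% interval -0.26 to 0.37). Leaving out replicate 4 of both genotypes takes away the highest wild-type and the lowest knockout library of Kalrn, so it had to raise the estimate. The log2 fold change was then 0.27, with an unadjusted p of 0.00906 and an adjusted p of 0.382 (edgeR). In that comparison 8.22% of all genes tested had an unadjusted p under 0.05. Without knockout replicate 3 the log2 fold change of Kalrn was -0.054.

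Cyfip2, a subunit of the WAVE complex that drives branched actin, was the highest gene of the list in CPM and per kilobase of merged exon. It lies on chromosome 11 (46193850 to 46312859, minus strand). Its values were 1275, 1212, 1231 and 1446 CPM in wild-type striatum and 1267, 1367, 1307 and 1142 CPM in knockout striatum, a log2 fold change of -0.023 (95% interval -0.19 to 0.14). That value was 0.036 without wild-type replicate 4 and 0.050 without knockout replicates 1 and 4. Per length it was 24.5 ± 2.04 times its paralog Cyfip1 in wild type and 22.6 ± 1.83 times in the knockout, or 14.1 and 13.0 times by the longest coding transcript. Baiap2, which links Rac to membrane curvature and actin, had 376 CPM ± 29.6 and 348 CPM ± 29.1, with a log2 fold change of -0.11 (95% interval -0.28 to 0.051). Synpo, the protein of the spine apparatus, had 237 CPM ± 21.6 and 220.0 CPM ± 16.0, with -0.11 (95% interval -0.28 to 0.058). For both genes the knockout ranges reached into the wild-type ranges, and neither passed an unadjusted p of 0.05. Without knockout replicates 1 and 4 the values were -0.056 for Baiap2 and -0.031 for Synpo, without knockout replicate 3 Baiap2 was at -0.17, and without wild-type replicate 2 Synpo was at -0.17.

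Actn2, an actinin that ties NMDA receptors to actin, had 66.2 CPM ± 8.41 and 67.2 CPM ± 6.48, and per length it was 0.756 ± 0.0728 times Actn1 in wild type and 0.794 ± 0.0911 times in the knockout. Strn encodes striatin, a calmodulin-binding scaffold of protein phosphatase 2A named for the striatum, and had 231 CPM ± 22.8 and 235 CPM ± 11.7. Its order against Strn3 depended on the length used: 1.63 ± 0.0961 times Strn3 in wild type by merged exons and 0.767 ± 0.0452 times by the longest coding transcript. Against Strn4 it was lower in every library by both lengths, at 0.888 ± 0.0818 and 0.405 ± 0.0373 times in wild type. Sorbs2, an adaptor of actin and Abl kinases, had 161 CPM ± 16.4 and 159.8 CPM ± 13.5. Its merged exons span 27851 bases, the most of the list, so its level per length, 5.77 in wild type, is a low estimate.

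Of the genes that move AMPA receptors, Nsf, the ATPase that takes SNARE complexes apart and also binds GluA2, was second to Cyfip2 per kilobase of merged exon and above it per kilobase of the longest coding transcript (209 and 192). It had 804 CPM ± 53.9 in wild-type striatum and 772 CPM ± 36.8 in knockout striatum, a log2 fold change of -0.059 (95% interval -0.20 to 0.084). Pick1, a PDZ and BAR domain protein that binds GluA2, had 51.6 CPM ± 4.71 and 49.8 CPM ± 2.04. Grip1, a PDZ scaffold of the same receptor subunit, had 21.5 CPM ± 3.32 and 20.5 CPM ± 1.87, and per length it was 0.816 ± 0.107 times Grip2 in wild type and 0.770 ± 0.0532 times in the knockout. Gphn, the gephyrin scaffold of glycine and GABA-A receptors, was the steadiest gene of the list, with a biological coefficient of variation of 6.35%. It measured 71.7, 73.5, 75.0 and 79.6 CPM in wild-type striatum and 80.6, 75.8, 79.2 and 75.6 CPM in knockout striatum. Its log2 fold change was 0.054 (95% interval -0.063 to 0.17), and wild-type replicate 4 sat among the knockout libraries.

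Of 31 genes 21 had a log2 fold change below 0, with a median of -0.023, beside 50.5% of all genes tested and a median of -0.0011. Without wild-type replicate 4 the count was 15 of 31 and the median 0.0037, without knockout replicate 4 it was 16 of 31, and without knockout replicates 1 and 4 it was 13 of 31 with a median of 0.0091. Other omissions went the other way: the count was 24 of 31 with a median of -0.047 without wild-type replicate 3, 24 of 31 with -0.041 without knockout replicate 3, and 23 of 31 with -0.047 without knockout replicate 2. The median gene lay below its own mean in knockout replicates 1 and 4 and in wild-type replicate 3, and above it elsewhere. The direction of each of these shifts was therefore set in advance by the library left out. The count without knockout replicates 1 and 4 sets 2 knockout libraries against 4 wild-type libraries. The deviations of single libraries were wider than this: the median gene lay 0.059 above its own mean in wild-type replicate 1 and 0.056 below it in knockout replicate 4, on the log2 scale. Wild-type replicate 4 held the highest value of 11 of 31 genes, knockout replicate 4 the lowest value of 10 and wild-type replicate 3 the lowest of 8.

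**Figure D3:**
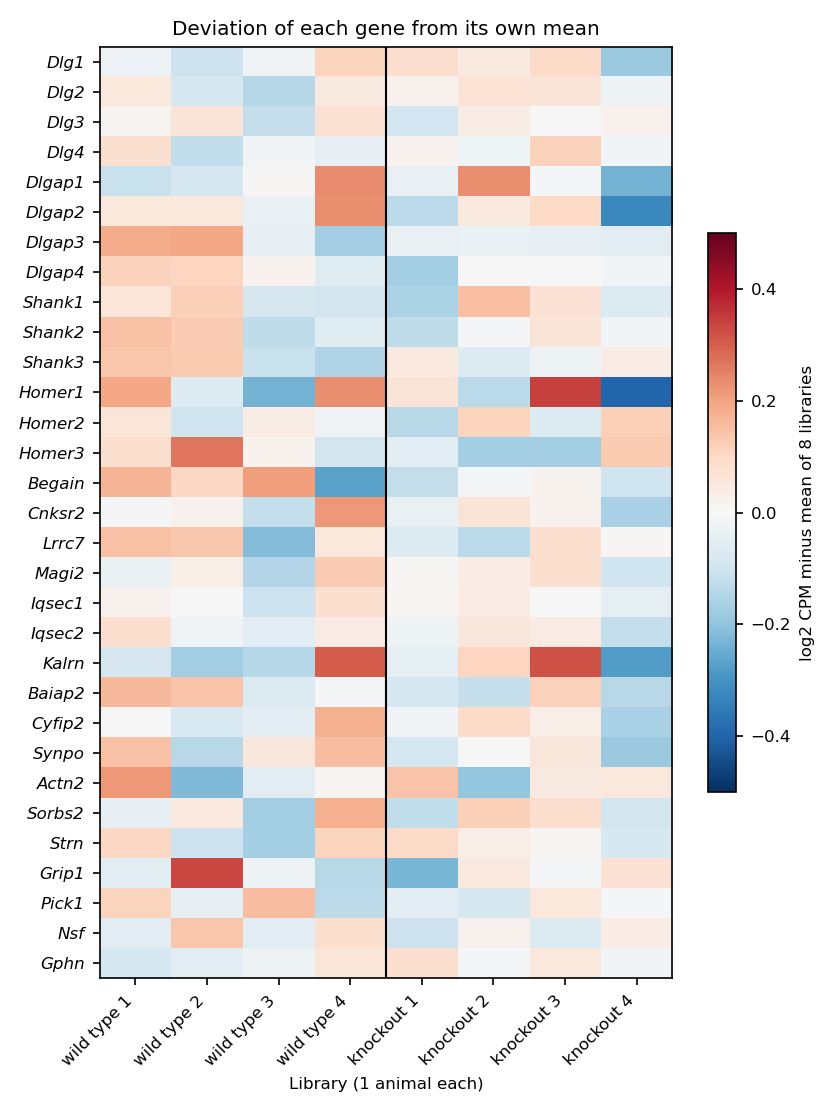
Deviation of each of the 31 genes (rows) in each library (columns) from the gene's own mean over 8 libraries, in log2 CPM, red above and blue below, with a line between wild type and knockout. Homer1 and Kalrn are high in wild-type replicate 4 and knockout replicate 3 and low in knockout replicate 4, and no genotype is of a single colour.

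Marker sums moved between the same libraries. Markers of cortical glutamatergic neurons (8 genes) summed to 1006, 1467, 1195 and 1284 CPM across wild-type replicates and 913, 1233, 1138 and 756 CPM across knockout replicates. The lowest sums were in knockout replicates 4 and 1, where thalamic markers were highest. Wild-type replicate 2, with the next highest thalamic sum (274 CPM), had the highest cortical sum. Immediate early genes (8 genes, among them Fos and Egr1), which report recent neuronal activity, summed to 405, 349.9, 379 and 568 CPM in wild-type striatum and 238, 390.2, 440.3 and 328 CPM in knockout striatum. Of the 8 immediate early genes 1 had a log2 fold change above 0, with a median of -0.32, while 50.5% of all genes tested were below 0. An unadjusted p under 0.05 was reached by 1 of 8, beside 3.76% of all genes tested, and 0 passed the adjusted threshold (edgeR). Wild-type replicate 4 and knockout replicate 3 were the highest libraries for immediate early genes, for Kalrn and for Homer1. The lowest library for immediate early genes was knockout replicate 1, where Homer1 was at 230.1 CPM, the fourth highest of 8. The part of these markers in the spread of Homer1 and Kalrn was not tested. Summed oligodendrocyte markers (8 genes) were at 7346 to 10015 CPM in wild-type striatum and 8943 to 10582 CPM in knockout striatum, and 8 of 8 had a log2 fold change above 0, as did 7 of 8 astrocyte markers (5409 to 6016 CPM and 5978 to 6512 CPM). At an unadjusted p under 0.05 there were 3 of 8 oligodendrocyte and 4 of 8 astrocyte markers, beside 3.76% of all genes tested, and 0 in either list passed an adjusted p of 0.05 (edgeR). Log2 fold changes were also above 0 for 4 of 4 blood, 5 of 6 endothelial and 7 of 7 microglial markers. They were above 0 for 0 of 5 choroid plexus and 0 of 5 ependymal markers. An unadjusted p under 0.05 (edgeR) was reached by 3 of 4 blood, 1 of 6 endothelial and 0 of 7 microglial markers. For choroid plexus and ependymal markers it was 0 of 5 and 1 of 5. The part of all these markers in the values of the postsynaptic genes was not tested.

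**Figure D4:**
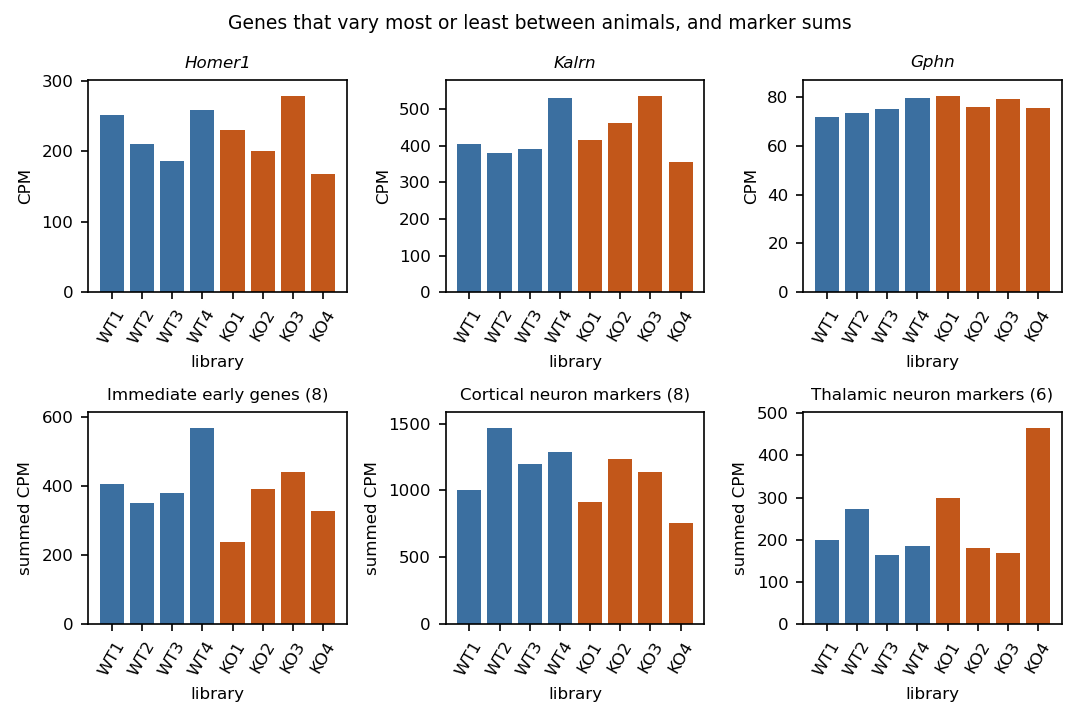
CPM of Homer1, Kalrn and Gphn and summed CPM of 3 marker lists (y axes from 0) in each library (x axes), wild type blue and knockout orange. Homer1 runs from 167 to 278 CPM and Kalrn from 355 to 538 CPM, while Gphn stays between 71.7 and 80.6 CPM, and thalamic markers stand out in knockout replicate 4.

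Of 63 further postsynaptic genes in 7 lists (kinases, WAVE complex and actin, regulators of small GTPases, other scaffolds, receptor trafficking, striatin complex and inhibitory synapse) 62 were matched and tested. An adjusted p under 0.05 was reached by 0 of 62, and an unadjusted p under 0.05 by 0 of 62 as well, in edgeR and in DESeq2, while limma-voom gave 1, Caskin1 (adjusted p 0.990). Of all genes tested 3.76% had an unadjusted p under 0.05 in edgeR, 2.21% in DESeq2 and 4.36% in limma-voom. The median log2 fold change was -0.027 with 40 of 62 below 0, beside 50.5% of all genes tested. For 59 of 62 genes the 95% interval lay within 1.5-fold, beside 77.8% of all genes tested. The smallest p, 0.0538 (adjusted p 0.999, edgeR), belonged to Arhgef7, a Rac exchange factor chosen here after its value was seen. It had 120.5 CPM and 109.5 CPM in the genotypes and a log2 fold change of -0.14. Medians of the 7 lists ran from -0.065 (kinases and calmodulin binding) to 0.012 (other scaffolds).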

How the data were processed

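The authors deposited whole-number read counts per gene for 8 poly(A)-selected, stranded libraries, marked as raw in the column names. The submitters' processing notes name bcl2fastq 2.17.1.14 and the build mm10; aligner, counter, annotation and strand setting were not given in the sources used here. Positions, lengths and overlaps came from GENCODE on GRCm38 (mm10): exons of Dlg2 and Magi2 overlap another gene on the same strand, and those of Dlgap4, Lrrc7, Iqsec1 and Sorbs2, besides the genes named above, a gene on the opposite strand.

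Genes were kept by filterByExpr (minimum count 10; 16511 of 31417), scaled by TMM and tested with edgeR 4.0.16 in R 4.3.3 (robust quasi-likelihood, genotype as the only term, two-sided, Benjamini-Hochberg). Intervals (95%) came from the quasi-likelihood statistic, and values are mean ± SD of TMM-scaled CPM. Alternatives were other scalings and filters, DESeq2 1.42.0, limma-voom (limma 3.58.1), a replicate block and leaving out libraries. Members, lists and alternatives were chosen with earlier results of these data known. Values in every library are given for the 3 largest positive and 3 largest negative changes, the highest gene of each paralog family and genes with a library set apart. Tamalin could not be matched.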

Additional observations from a re-analysis of the deposited data

Results flagged for a closer look

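In each genotype, the highest and lowest of the 4 libraries were compared with the others by Dixon's criterion, and 2 of 62 groups (31 genes in 2 genotypes) held a library set apart; chance flags about 1 group in 20. Dlgap4 was at 195.2 CPM in knockout replicate 1, while the other 3 knockout libraries were at 217.6 to 219.8 CPM. Kalrn was at 532.2 CPM in wild-type replicate 4, while the other 3 wild-type libraries were at 381.8 to 406.3 CPM.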

How the results depend on the processing

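Over 17 alternatives, 0 of 31 genes passed an adjusted p of 0.05 in any, and the smallest adjusted p was 0.382 (Kalrn, without replicate 4 of both genotypes). The sign of the log2 fold change was the same in all 17 for 13 genes and differed in at least 1 for the other 18. Leaving out 1 library at a time gave 0 to 2 genes of the list at an unadjusted p under 0.05 (Begain and Dlgap3 without wild-type replicate 4, Baiap2 and Dlgap2 without knockout replicate 3, Synpo without wild-type replicate 2 and Lrrc7 without wild-type replicate 3) and 0 to 3 without overlap between the genotypes, beside at most 6.67% and between 3.24% and 7.12% of all genes tested. Without wild-type replicate 4 the counts were 2 and 3 of 31, beside 6.67% and 7.12%. The further postsynaptic genes then numbered 0 to 4 of 62 at that p, and all genes past an adjusted p of 0.05 numbered 1 to 2. Without replicate 4 of both genotypes, 3 genes of the list reached an unadjusted p under 0.05 (Kalrn, Begain and Homer3) and 6 did not overlap, beside 8.22% and 13.5% of all genes tested; 6 further postsynaptic genes reached that p and 3 of all genes passed the adjusted threshold. Without knockout replicates 1 and 4, 13 genes of the list were below 0 and 2 did not overlap, beside 8.29% of all genes tested. The further postsynaptic genes at an unadjusted p under 0.05 numbered 3 of 62 with no filter on low counts, 1 with limma-voom and 1 with the replicate number as a block, beside 3.75%, 4.36% and 4.26% of all genes tested, and DESeq2 called 3 of all genes at the adjusted threshold. With no filter on low counts the single gene past the adjusted threshold was not Dclk3 but a gene higher in the knockout. The cause of these differences was not tested. With the replicate block, 0 genes of the list passed either threshold and 21 lay below 0. Libraries of the same number are not shown to be paired, since their deviations correlated at -0.28 to 0.053, and wild-type replicate 1 correlated best with knockout replicate 4 (0.16). Depth matters most for Homer3 (201 to 367 counts a library) and Grip1 (435 to 939), the least counted genes of the list.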

Other observations

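Among the postsynaptic partners outside the list, several exceeded the scaffolds per length. Nrgn, a calmodulin-binding protein of spines, and Camk2a, the alpha subunit of CaMKII, had 436 and 415 CPM per kilobase of merged exon over the 8 libraries, and Dynll2, a light chain that binds the SAPAP and SHANK complex, had 362. Camk2a measured 3044 CPM in wild-type striatum and 3156 CPM in knockout striatum, a log2 fold change of 0.052, and Camk2b 1135 CPM and 1043 CPM, a log2 fold change of -0.12 (unadjusted p 0.0736, edgeR). Ppp1r9b, the spinophilin that brings protein phosphatase 1 to spines, and Agap2 had 208 each on the same scale, above all 31 genes of the list, of which Cyfip2 had the most (180.3). In the WAVE complex, to which Cyfip2 belongs, Nckap1 had 154 and Brk1 144, whereas Abi1 and Abi2 had 32.8 each.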
